A study of Homo sapiens with 6 samples.

Results

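The alpha and beta tubulins were described by 10 genes, chosen by name from the 62700 genes in the files. They comprised 4 alpha genes (*TUBA1A*, *TUBA1B*, *TUBA1C* and *TUBA4A*) and 6 beta genes (*TUBB*, *TUBB2A*, *TUBB2B*, *TUBB3*, *TUBB4B* and *TUBB6*). RNA-Seq covered 6 libraries of SK-Hep1 cells, an established human line used in liver cancer research and described as endothelial-derived. The control group held 3 libraries, titled shControl with the genotype WT. The knockdown group held 3 libraries, titled shRAB30-DT with the genotype RAB30-DT knockdown. *RAB30-DT* is a long noncoding RNA, and the comparison asked how its depletion changed gene expression. According to the methods, stable lines were made with pLKO.1 lentiviruses that carried an shRNA or a control vector, followed by puromycin selection. A title that names a control shRNA and a genotype label of WT leave it unclear whether the control cells had been through the same transduction and selection, so an effect of these steps and that of the shRNA cannot be told apart. Which shRNA the knockdown libraries carried is not given in the labels, and the labels do not say whether the replicates were separate cultures, so p-values measure the spread between these libraries, which may be technical.

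Microtubules are hollow fibres built from heterodimers of alpha and beta tubulin. They form the mitotic spindle and serve as tracks for transport in the cell. Human cells hold several genes for each subunit, the isotypes, whose proteins are nearly the same over the folded body and differ most in the acidic tail at the carboxyl end. Cells also adjust tubulin mRNA to the amount of free heterodimer: the factor *TTC5* recognizes the first residues of a tubulin chain as it leaves the ribosome and, through *SCAPER*, brings the CCR4-NOT deadenylase to that mRNA.

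The coding sequence shows both the shared start that *TTC5* reads and the different tails. It is given here from GENCODE transcripts on hg38. The first 21 coding bases are shown for the 2 most abundant alpha genes and for 3 beta genes, with the first 4 codons in capitals. All 4 alpha genes had TGC as the fourth codon, and all 6 beta genes had ATC.
TUBA1B start: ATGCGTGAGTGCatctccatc
TUBA1C start: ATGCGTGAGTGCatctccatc
TUBB start: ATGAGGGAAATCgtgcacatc
TUBB4B start: ATGAGGGAAATCgtgcacttg
TUBB3 start: ATGAGGGAGATCgtgcacatc

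The last 45 coding bases, which encode the tail, are shown for 7 isotypes, with the last sense codon and the stop codon in capitals.
TUBA1C end: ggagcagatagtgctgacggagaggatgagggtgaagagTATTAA
TUBA4A end: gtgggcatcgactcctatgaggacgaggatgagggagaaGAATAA
TUBB end: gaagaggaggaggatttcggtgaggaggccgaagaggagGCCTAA
TUBB2A end: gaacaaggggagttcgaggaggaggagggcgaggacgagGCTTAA
TUBB2B end: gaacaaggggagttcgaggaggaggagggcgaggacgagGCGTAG
TUBB3 end: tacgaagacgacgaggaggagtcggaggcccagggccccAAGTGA
TUBB6 end: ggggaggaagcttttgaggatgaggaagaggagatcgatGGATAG

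*TUBA1C* closes with TAT, a tyrosine codon, whereas *TUBA4A* closes with GAA. The tyrosine at the end of most alpha tubulins is removed and added back by enzymes, of which the ligase *TTL* is described below. *TUBB2A* and *TUBB2B* ended alike up to their last codons, and *TUBB3* closes with AAG. The close likeness matters for the values, because a read that fits more than one isotype has to be assigned by the counting program. Coding identity was 97.2% between *TUBA1A* and *TUBA1B*, 95.9% between *TUBA1A* and *TUBA1C*, 96.8% between *TUBA1B* and *TUBA1C*, and 98.1% between *TUBB2A* and *TUBB2B*. Between the other beta pairs it was 80.9% to 87.7%, and between any alpha and any beta gene 52.9% to 55.6%. Of the 100-base windows of the main transcript, 37.2% in *TUBA1B*, 21.2% in *TUBA1A*, 12.3% in *TUBA1C*, 55.6% in *TUBB2A* and 48.7% in *TUBB2B* also occurred in a transcript of another gene. For *TUBB*, *TUBB4B* and *TUBB6* the share was 5.4%, 3.0% and 0.0%. It was 92.5% for *TUBB3*, nearly all through the gene ENSG00000198211, which lies over it on the same strand and was at no more than 0.41 TPM in any library.

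The genes lie at scattered places in hg38. *TUBA1B* (ENSG00000123416.15) is at chr12:49127782-49131397 and *TUBA1A* (ENSG00000167552.15) at chr12:49184686-49189080, both on the minus strand. *TUBA1C* (ENSG00000167553.17) is at chr12:49188736-49274600 on the plus strand, and its exons overlap those of *TUBA1A* by 345 bases. *TUBA4A* (ENSG00000127824.15) is at chr2:219249710-219277902 on the minus strand. On chromosome 6 are *TUBB* (ENSG00000196230.14) at chr6:30717435-30725538 on the plus strand, and *TUBB2A* (ENSG00000137267.7) at chr6:3153497-3157544 and *TUBB2B* (ENSG00000137285.11) at chr6:3223324-3231730 on the minus strand. *TUBB3* (ENSG00000258947.8) is at chr16:89921392-89938761, *TUBB4B* (ENSG00000188229.6) at chr9:137241287-137243707 and *TUBB6* (ENSG00000176014.13) at chr18:12307669-12344320, all on the plus strand. Every main transcript had 4 exons. The 3′UTRs ranged from 151 bases in *TUBB4B* to 1373 bases in *TUBA1C*.

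Values were deposited as TPM, an abundance that corrects for transcript length and gives each library the same total. TPM keep no read number, so the depth and counting error of each library are unknown. In each library 20127 to 21675 genes were above 0 TPM and 13732 to 14094 reached 1 TPM. The targeted *RAB30-DT* was at 18.2, 11.5 and 13.9 TPM in the control libraries and at 11.9, 10.9 and 6.5 TPM in the knockdown libraries, in the order of their replicate numbers, so the groups overlapped (log2 fold change −0.55, adjusted p = 0.355 from limma). Libraries also differed in how their levels, taken as deviations from each gene's mean over the 6 libraries, followed GC content. Spearman's rho of these deviations with GC content was −0.61, 0.30 and 0.49 in control replicates 1, 2 and 3. In knockdown replicates 1, 2 and 3 it was −0.52, 0.02 and 0.33. Its sign is relative to the other libraries, and it was taken across genes, which are not independent replicates. Of 7 endothelial markers, *KDR* was at 0 TPM in every library and *PECAM1* at no more than 0.01 TPM. *VWF*, *CDH5* and *TEK* were at no more than 0.36 TPM and *TIE1* at no more than 3.08 TPM, while *ENG* was at 62.2 to 85.1 TPM. Of 7 hepatocyte markers, *ALB*, *TTR* and *HNF4A* were at 0 TPM in every library, *APOA1*, *AFP* and *TF* were at no more than 1.63 TPM, and *SERPINA1* was at 18.1 to 24.0 TPM in control and 28.3 to 37.2 TPM in knockdown libraries. Of 5 mesenchymal markers the highest, *VIM*, was at 3793 to 3997 TPM in control and 4336 to 4784 TPM in knockdown libraries (log2 fold change 0.25, adjusted p = 0.225 from limma). The markers at or near 0 were named after their values were seen.

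Tubulin mRNA was lower in knockdown cells in both pools. The alpha pool, the summed TPM of all 9 alpha genes in the files, was 4587, 4359 and 4593 TPM in the control libraries and 2922, 3124 and 3103 TPM in the knockdown libraries, in replicate order. The beta pool, the sum of 10 beta genes, was 2910, 3390 and 3431 TPM in control and 1940, 2274 and 2281 TPM in knockdown libraries. In both pools, all knockdown libraries lay under all control libraries. The mean of the alpha pool was 4513 ± 134 TPM (SD, n = 3) in control and 3049 ± 111 TPM (SD, n = 3) in knockdown cells, or 67.6% of control, a difference of −0.57 on the log2 scale. For the beta pool the means were 3244 ± 289 TPM and 2165 ± 195 TPM (SD, n = 3 each), or 66.8% of control and −0.58 on the log2 scale. Exact two-sided permutation tests gave p = 0.1 for each, the smallest that 3 libraries against 3 allow, so this test cannot pass 0.05. In all, alpha and beta tubulin took 0.750%, 0.775% and 0.802% of all TPM in control libraries and 0.486%, 0.540% and 0.538% in knockdown libraries.

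**Figure D1:**
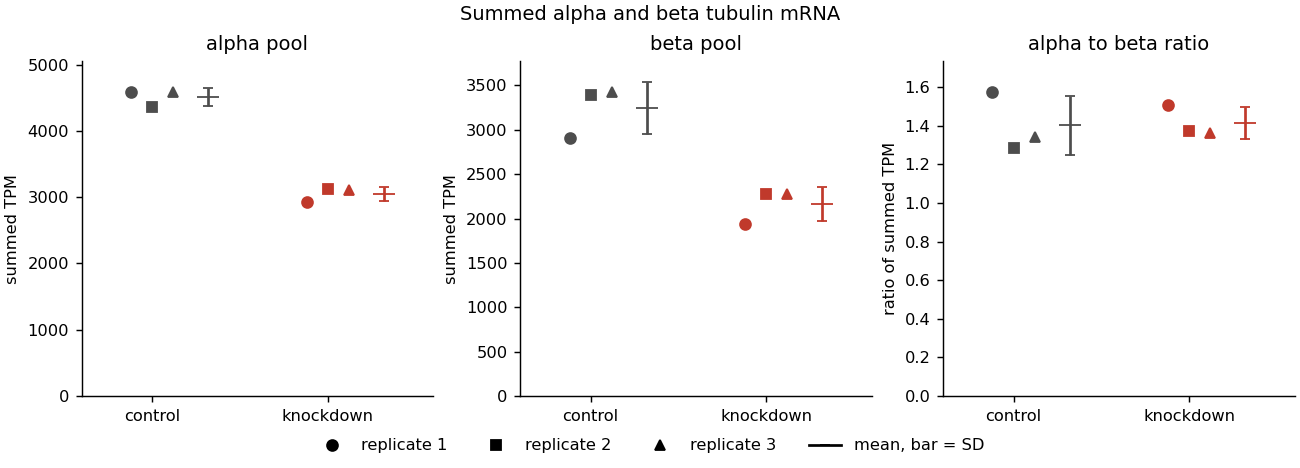
Summed TPM of the alpha and beta tubulin genes and the ratio of both sums (vertical axes from 0), for 3 control (grey) and 3 knockdown (red) libraries, with the mean and SD beside the points. Both pools were lower in every knockdown library, while the ratio was 1.40 ± 0.155 in control and 1.41 ± 0.0805 in knockdown libraries.

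The pools kept similar proportions to each other. The ratio of alpha to beta was 1.58, 1.29 and 1.34 in control and 1.51, 1.37 and 1.36 in knockdown libraries, with overlapping groups and a difference in means of 0.013 (exact permutation p = 0.8). Leaving out control replicate 2 turned it to −0.044, and leaving out control replicate 1 raised it to 0.101. Replicate 1 had the highest ratio in both groups. In bulk RNA, fewer cells of a type and less RNA per cell cannot be told apart, which holds for every level given here.

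Among single genes, *TUBA1B*, the most abundant isotype, fell, and 8 others had lower estimates that did not pass the test. The test was limma on log2(TPM + 1) over the 14020 genes whose mean reached 1 TPM. Of the 10 tubulins, 9 reached this mean and *TUBA4A* did not. *TUBA1B* was the 1 member called lower at an adjusted p under 0.05, where 0.670% of all genes were called lower. No member was called higher, against 0.371% of all genes, and 0 members had an unadjusted p under 0.05 with a higher level, while 6 had one with a lower level. Over all genes tested, 7.06% had such a p with a higher and 9.70% with a lower level. In these 6 of 9 members the groups did not overlap and the knockdown libraries were lower, as in 13.4% of all genes tested. For no member were all knockdown libraries higher, against 9.89% of all genes. The median log2 fold change of the 9 members was −0.49, and that of all genes tested −0.04.

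**Figure D2:**
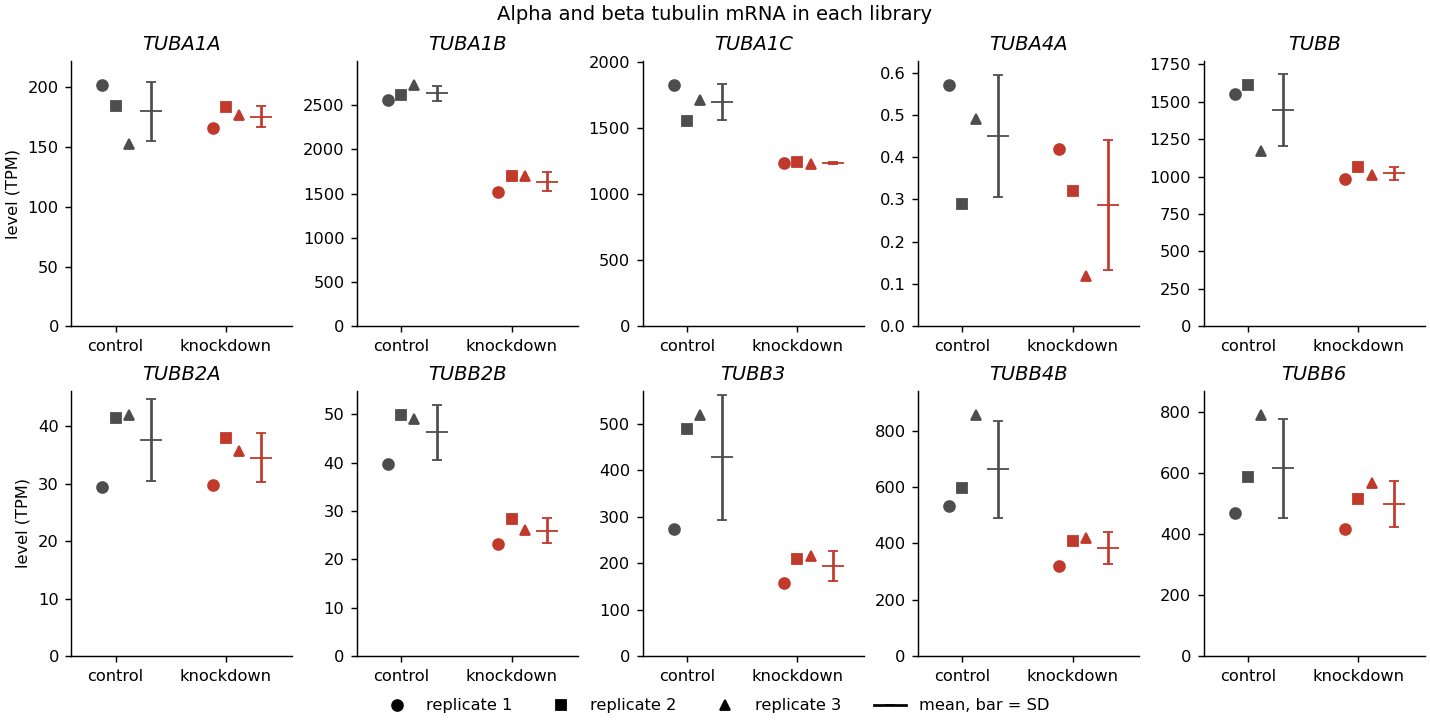
Level of each tubulin gene in TPM (vertical axes from 0, scaled for each gene) in 3 control (grey) and 3 knockdown (red) libraries, with the mean and SD beside the points and the marker shape giving the replicate number. In 6 genes the groups do not overlap, and TUBA1B has the highest level in both.

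*TUBA1B*, the main alpha tubulin of many dividing cells, was at 2558, 2615 and 2724 TPM in control and at 1516, 1694 and 1699.5 TPM in knockdown libraries, in the order of the replicate numbers as for all values below. The groups lay far apart for their spread, with means of 2632 ± 84.3 and 1636 ± 104 TPM (SD, n = 3 each), and the knockdown mean was 62.2% of control. The log2 fold change was −0.69 (standard error, SE, of 0.10, adjusted p = 0.0285). With a library left out the estimate stayed between −0.72 and −0.63, but the adjusted p was 0.141 without control replicate 2 and 0.124, 0.153 and 0.133 without knockdown replicates 1, 2 and 3, so the call rests on each of these 4 libraries. With any of the 4 left out, 0.0428% to 0.0574% of all genes were called lower. The antisense gene *TUBA1B-AS1* shares 1571 exon bases with *TUBA1B*. It was at 349, 1.21 and 0.03 TPM in control and 146.5, 51.4 and 0.45 TPM in knockdown libraries, a spread that did not follow the groups. Since the sources used here do not say whether counting used strand, reads of both cannot be told apart; with their levels summed, the log2 fold change was −0.69 (adjusted p = 0.0262).

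*TUBA1C*, the next alpha isotype, was at 1826, 1558.5 and 1715 TPM in control and at 1238, 1246 and 1226 TPM in knockdown libraries. All knockdown libraries were lower and lay within 20 TPM of each other, while the control libraries were spread more widely. The means were 1700 ± 134 and 1237 ± 9.95 TPM (SD, n = 3 each), with a log2 fold change of −0.46 (SE 0.11, adjusted p = 0.0932) that missed the threshold. The antisense gene ENSG00000258232 shares 666 exon bases with *TUBA1C* and was at 321, 162 and 305 TPM in control and 208, 345 and 299 TPM in knockdown libraries. Added to *TUBA1C*, it gave a log2 fold change of −0.36 (adjusted p = 0.185).

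*TUBA1A*, the isotype best known from developing neurons, was the tested alpha gene whose groups overlapped. Its levels were 202, 185 and 153 TPM in control and 166, 183 and 177 TPM in knockdown libraries. The knockdown libraries lay within the range of the control libraries, and the log2 fold change was −0.03 (SE 0.15, adjusted p = 0.948). Its sign was not stable: it was 0.16 under quantile normalization and 0.06 without control replicate 1. Summed before the fit, the 3 near-identical genes *TUBA1A*, *TUBA1B* and *TUBA1C* fell by 0.57 in log2 units (SE 0.09, adjusted p = 0.0343). *TUBA4A* was barely present, at 0.57, 0.29 and 0.49 TPM in control and 0.42, 0.32 and 0.12 TPM in knockdown libraries.

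*TUBB*, the most abundant beta tubulin here, was at 1553, 1609 and 1167 TPM in control and at 984, 1066 and 1009.6 TPM in knockdown libraries. Control replicate 3 was nearest to the knockdown libraries, yet the groups did not overlap. The means were 1443 ± 240 and 1020 ± 42.0 TPM (SD, n = 3 each), and the log2 fold change of −0.49 (SE 0.14, adjusted p = 0.152) did not pass the test. An antisense gene, ENSG00000272540, shares 538 exon bases with *TUBB* and was at 23.3 to 81.8 TPM.

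*TUBB4B*, a beta isotype found in most tissues and in cilia, was at 534, 598 and 857 TPM in control and at 320.4, 410.1 and 421 TPM in knockdown libraries. Control replicate 3 stood above the others, and all knockdown libraries were lower than all control libraries. The means were 663 ± 171 and 384 ± 55.3 TPM (SD, n = 3 each), with a log2 fold change of −0.77 (SE 0.20, adjusted p = 0.12).

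*TUBB3*, the class III isotype used as a neuronal marker and found in many tumours, had the largest estimate of the 9 members tested. It was at 274, 489.7 and 519 TPM in control and at 156, 209.6 and 216 TPM in knockdown libraries. Control replicate 1 stood below the other control libraries and was still above all knockdown libraries. The means were 428 ± 134 and 194 ± 32.8 TPM (SD, n = 3 each), so the knockdown mean was 45.4% of control. The log2 fold change of *TUBB3* was −1.10 (SE 0.26, adjusted p = 0.0949), and without control replicate 1 it was −1.39 with an adjusted p of 0.0137. With any other library left out it was between −1.18 and −0.93, with adjusted p from 0.145 to 0.301. Neuronal markers were near absent beside it: of 8, *ELAVL4*, *NEFL*, *NEFM* and *DCX* were at 0 TPM in every library, 1 (*SNAP25*) reached a mean of 1 TPM, and the sum of all 8 was 2.31 to 7.9 TPM in control and 2.41 to 3.79 TPM in knockdown libraries.

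*TUBB6*, a beta isotype of non-neuronal cells, had a smaller difference. It was at 471, 587 and 792 TPM in control and at 419, 516 and 567 TPM in knockdown libraries. The groups overlapped, and the log2 fold change was −0.28 (SE 0.21, adjusted p = 0.536). Leaving out single libraries moved this estimate to between −0.46 (control replicate 1 left out) and −0.08 (control replicate 3 left out), and quantile normalization gave −0.08. *AFG3L2* on the other strand shares 837 exon bases with *TUBB6* and was at 31.9 to 51.7 TPM.

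The near-identical pair *TUBB2A* and *TUBB2B*, both known from brain, was low in these cells. *TUBB2B* was at 39.8, 49.9 and 49.1 TPM in control and at 23.2, 28.4 and 26.1 TPM in knockdown libraries, with no overlap. *TUBB2A* was at 29.4, 41.4 and 42.0 TPM in control and at 29.7, 38.0 and 35.8 TPM in knockdown libraries, which overlapped. The pair thus differed in its estimates: the log2 fold change was −0.81 (SE 0.18, adjusted p = 0.0802) for *TUBB2B* and −0.11 (SE 0.20, adjusted p = 0.824) for *TUBB2A*. The difference between both estimates was not tested, and for their sum the log2 fold change was −0.46 (SE 0.18, adjusted p = 0.253). *PSMG4* on the other strand shares 174 exon bases with *TUBB2B*. It was at 27.77, 52.77 and 69.44 TPM in control and 22.89, 32.9 and 39.99 TPM in knockdown libraries, with overlapping groups. Whether reads of *PSMG4* entered the level of *TUBB2B* was not tested.

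Transcripts of the beta genes held 51.1% to 62.2% GC and those of the alpha genes 50.2% to 55.1%. *TUBB2A*, *TUBB2B*, *TUBB3*, *TUBB4B* and *TUBB6* were lowest in replicate 1 of both groups, and so was *TUBA1B*. These are the libraries whose deviations from the gene means had a negative rho with GC content. With each library's trend with GC content removed, 5 members were lower at an adjusted p under 0.05, where 4.39% of all genes were called lower. These were *TUBA1B* at −0.64 (adjusted p = 0.0151), *TUBA1C* at −0.43 (0.048), *TUBB2B* at −0.74 (0.0106), *TUBB3* at −0.98 (0.00921) and *TUBB4B* at −0.67 (0.033), all log2 fold changes with limma's adjusted p in parentheses. *TUBB* was at −0.45 (adjusted p = 0.0681) and *TUBB6* at −0.20 (adjusted p = 0.415). *TUBA1A* and *TUBB2A* were at 0.01 and −0.01 (adjusted p = 0.965 and 0.943). Without control replicate 1, and with the trend left in, 4 members were called, namely *TUBA1B* (adjusted p = 0.0254), *TUBB2B* (0.0352), *TUBB3* (0.0137) and *TUBB4B* (0.0488), where 2.19% of all genes were called lower. With control replicate 3 left out *TUBA1B* alone was called, where 0.672% of all genes were called lower. With control replicate 2 left out 0 members were called, where 0.0428% of all genes were called lower. With knockdown replicate 1, 2 or 3 left out 0 members were called too, where 0.0574%, 0.0430% and 0.0570% of all genes were called lower, so these counts of 0 say little about the tubulins.

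**Figure D3:**
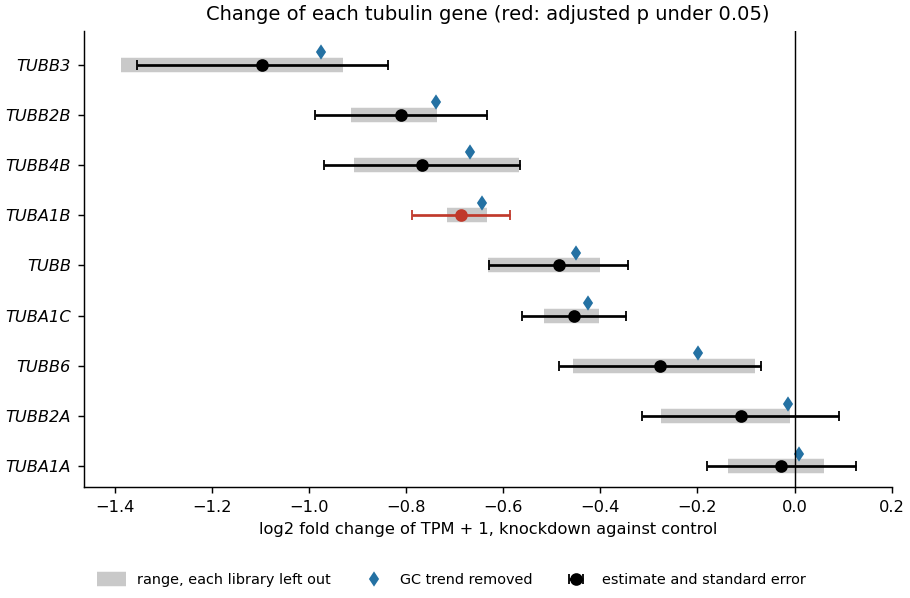
Log2 fold change of TPM + 1 in knockdown against control cells for the 9 tubulin genes tested, with the standard error (bars), the range with each library left out (grey) and the value with the GC trend removed (diamonds); red marks an adjusted p under 0.05. Estimates run from −1.10 for TUBB3 to −0.03 for TUBA1A, and the range of TUBA1A crosses 0.

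The order of the isotypes by TPM, which is per length, was similar in both groups. In control libraries *TUBA1B* was highest, followed by *TUBA1C* and *TUBB*, whose ranges overlapped, then by *TUBB4B*, *TUBB6* and *TUBB3*, each overlapping the next, then *TUBA1A*, then *TUBB2B* and *TUBB2A* with overlapping ranges, and last *TUBA4A*. In knockdown libraries *TUBA1B*, *TUBA1C* and *TUBB* held the same places without overlap. *TUBB6* and *TUBB4B* followed with overlapping ranges, then *TUBB3* and *TUBA1A*, which also overlapped. *TUBB2A* was above *TUBB2B* there, without overlap. *TUBB3* was thus clear of *TUBA1A* in control cells, by 274 TPM at the lowest against 202 TPM at the highest, and overlapped it in knockdown cells.

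In 4 of the 10 shares the groups did not overlap, and in 6 they did. Shares of 1 pool sum to 100% and are not independent, and of the 10 shares compared, none can go below an exact p of 0.1. *TUBA1B* was 55.8%, 60.0% and 59.3% of the alpha pool in control and 51.9%, 54.2% and 54.8% in knockdown libraries, lower in all knockdown libraries (difference in means −4.73 percentage points, exact permutation p = 0.1). *TUBA1A* was 4.40%, 4.24% and 3.33% in control and 5.69%, 5.86% and 5.70% in knockdown libraries, higher in all of them (1.76 percentage points, exact permutation p = 0.1). The level of *TUBA1A* differed between the groups by less than its spread, while the pool around it was smaller. The share of *TUBA1C* was 37.6 ± 2.04% and 40.6 ± 1.56% (SD, n = 3 each), with overlapping groups (exact permutation p = 0.2), and that of *TUBA4A* was at most 0.0144%.

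**Figure D4:**
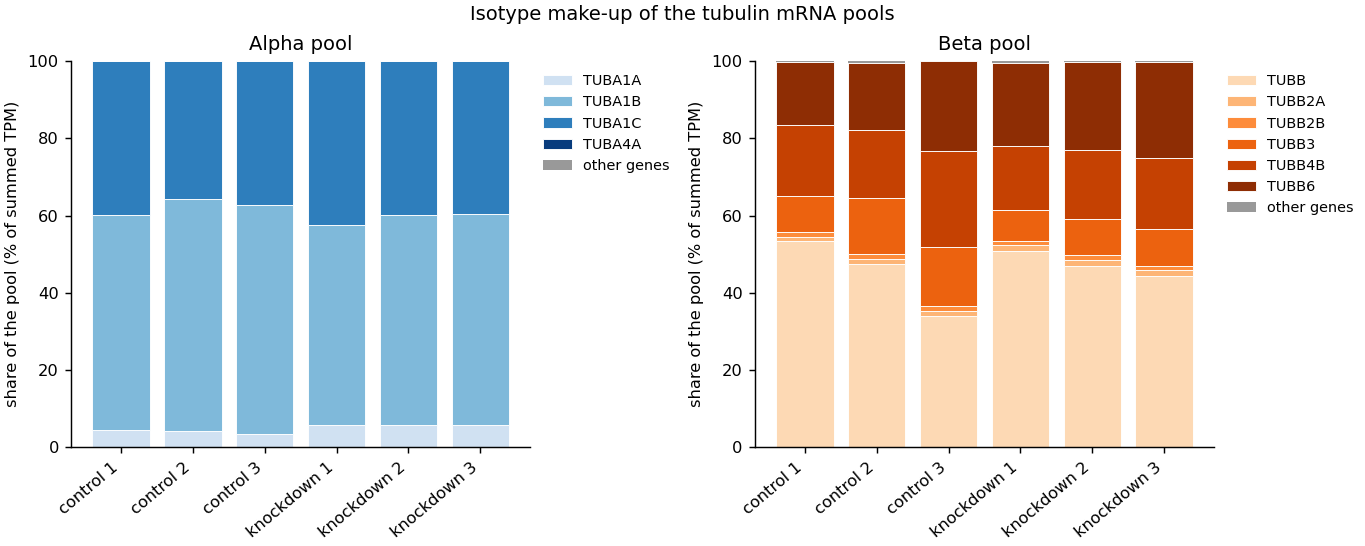
Share of each gene in the summed TPM of the alpha pool (left) and the beta pool (right), in percent, for each of the 6 libraries. TUBA1B holds 51.9% to 60.0% of the alpha pool and TUBB 34.0% to 53.4% of the beta pool, the latter with more spread between control libraries than between groups.

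In the beta pool the shares of the near-identical pair differed in opposite directions. *TUBB2A* was 1.01%, 1.22% and 1.22% of the pool in control and 1.53%, 1.67% and 1.57% in knockdown libraries, and *TUBB2B* was 1.37%, 1.47% and 1.43% in control and 1.20%, 1.25% and 1.15% in knockdown libraries. Neither overlapped, with differences in means of 0.44 and −0.23 percentage points (exact permutation p = 0.1 each). Of the 100-base windows, 55.6% in *TUBB2A* and 48.7% in *TUBB2B* also occurred in a transcript of another gene. How shared reads were divided was not tested, for these or the alpha shares. *TUBB3* was 9.42%, 14.5% and 15.1% in control and 8.06%, 9.22% and 9.47% in knockdown libraries, where control replicate 1 fell among the knockdown values (−4.09 percentage points, exact permutation p = 0.2). *TUBB* was 53.4%, 47.5% and 34.0% in control and 50.7%, 46.9% and 44.3% in knockdown libraries (exact permutation p = 0.9). The shares of *TUBB4B*, 20.3 ± 4.05% and 17.7 ± 1.03%, and of *TUBB6*, 18.9 ± 3.71% and 23.0 ± 1.66% (SD, n = 3 each), also overlapped (exact permutation p = 0.5 and 0.3). Without control replicate 3 the difference in means went from 2.35 to −3.11 percentage points for *TUBB* and from −2.65 to −0.32 for *TUBB4B*, and for *TUBB6* from 4.19 to 6.30.

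Other alpha and beta genes added little. The 5 further alpha genes summed to no more than 1.12 TPM. The highest of them, *TUBA8*, was at no more than 1.07 TPM, and *TUBA3C*, named after its values were seen, was at 0 TPM in every library. Of 4 further beta genes, *TUBB4A*, a brain isotype, was the highest at 9.11, 14.1 and 3.19 TPM in control and 6.34, 4.66 and 5.24 TPM in knockdown libraries (log2 fold change −0.43, adjusted p = 0.647). Tubulin pseudogenes, 16 of alpha and 35 of beta, summed to no more than 1.46 and 1.25 TPM.

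Gamma tubulin nucleates microtubules within a ring complex, and 1 of its 13 listed genes was called lower, where 0.670% of all genes were. *TUBGCP3*, a core subunit of the ring, was at 37.4, 30 and 43.6 TPM in control and at 15.8, 16.4 and 16.2 TPM in knockdown libraries. It fell by 1.13 in log2 units (SE 0.19, adjusted p = 0.0417), and its groups did not overlap. The adjusted p was 0.119 and 0.0549 without control replicates 2 and 3, and 0.153, 0.191 and 0.18 without knockdown replicates 1, 2 and 3, so 5 libraries each decide the call. The log2 fold change in these 5 fits was between −1.27 and −1.01, and all but the fit without control replicate 3 called only 12 to 18 genes in all. In 4 of the 13 genes all knockdown libraries were lower, against 13.4% of all genes, and in 1 all were higher, against 9.89%, and the median was −0.19. Chosen after their values were seen, the gamma tubulins *TUBG1* and *TUBG2* stood on opposite sides. *TUBG1*, the main form, was at 162, 224 and 270.1 TPM in control and 90.1, 119 and 139 TPM in knockdown libraries (log2 fold change −0.90, adjusted p = 0.118). *TUBG2* was at 13.9, 14.3 and 12.8 TPM in control and 20.3, 25.5 and 23.6 TPM in knockdown libraries (log2 fold change 0.72, adjusted p = 0.104). Neither passed the test, and both did with the GC trend removed (−0.82 and 0.81, adjusted p = 0.0242 and 0.025). That fit called 8.61% of all genes, and 4.39% of all genes were called lower in it. The most abundant gene of the list, *MZT2B*, a small protein of the ring, was at 565 ± 199 and 490.5 ± 143 TPM (SD, n = 3 each; log2 fold change −0.18, adjusted p = 0.817).

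New tubulin chains pass from prefoldin to the CCT chaperonin, a closed ring that also folds actin. None of the 14 genes of both complexes was called by limma, where 0.670% of all genes were called lower and 0.371% higher. At an unadjusted p under 0.05, 6 were lower and 1 higher, against 9.70% and 7.06% of all genes. All knockdown libraries were lower in 8, against 13.4% of all genes, and higher in 1, against 9.89%, and the median was −0.35. The summed level of the list was 4517, 4098 and 4739 TPM in control and 3740.2, 3611 and 3571 TPM in knockdown libraries. *CCT5*, the most abundant of them, was at 607, 524 and 724 TPM in control and 422, 385 and 383 TPM in knockdown libraries (log2 fold change −0.63, adjusted p = 0.0949). *PFDN5*, a prefoldin subunit chosen after its values were seen, was at 398, 356 and 397 TPM in control and 514, 555 and 556 TPM in knockdown libraries (log2 fold change 0.50, adjusted p = 0.0993). It was the member of the list with all knockdown libraries higher. With the GC trend removed the log2 fold change of *PFDN5* was 0.53 (adjusted p = 0.0283 from limma), in a fit that called 8.61% of all genes.

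After CCT, the cofactors *TBCA* to *TBCE* assemble the heterodimer. Among the 9 genes of the cofactor list, 1 had an unadjusted p under 0.05, higher, where 7.06% of all genes did. None was called by limma, where 0.670% of all genes were called lower and 0.371% higher. The median was 0.01, and *TBCA*, which holds beta tubulin and is the most abundant of them, was at 312 ± 69.6 and 309.9 ± 26.7 TPM (SD, n = 3 each; log2 fold change 0.01, adjusted p = 0.979).

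For the autoregulation of tubulin mRNA, 12 genes were listed, of which 0 were called, where 0.670% of all genes were called lower and 0.371% higher. Of the 12, 0 had an unadjusted p under 0.05. Of all genes, 9.70% had such a p with a lower and 7.06% with a higher level. In 3 of the 12 listed genes all knockdown libraries were lower, against 13.4% of all genes, and the median was −0.06. *TTC5*, the reader of the nascent chain, was 1 of these 3, at 7.55, 8.51 and 9.16 TPM in control and 7.08, 5.19 and 7.27 TPM in knockdown libraries (log2 fold change −0.33, adjusted p = 0.465). *SCAPER*, its adaptor, was at 13.7, 5.85 and 4.79 TPM in control and 8.59, 7.28 and 6.81 TPM in knockdown libraries, which overlapped (log2 fold change 0.03, adjusted p = 0.976). *TTC5* and *SCAPER* were named for their role after their values were seen. *CNOT1*, the scaffold of CCR4-NOT and the highest of the list, was at 122 ± 17.6 and 116 ± 21.4 TPM (SD, n = 3 each; log2 fold change −0.08, adjusted p = 0.871). The files measure mRNA levels alone, and the amount of free heterodimer was not measured.

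Enzymes that modify tubulin were tested for 19 of 20 genes. None was called by limma, where 0.670% of all genes were called lower and 0.371% higher, and the median was −0.01. An unadjusted p under 0.05 was found for 1 gene, higher, where 7.06% of all genes had one. That gene was *AGBL2*, a cytosolic carboxypeptidase that trims tubulin tails, named after its values were seen. It was at 0.26, 0.87 and 0.96 TPM in control and 5.72, 3.06 and 1.54 TPM in knockdown libraries, low in both (log2 fold change 1.3, adjusted p = 0.163). *TTL*, the ligase that adds the tyrosine back and the most abundant of the list, was at 38.9 ± 8.06 and 34.2 ± 4.82 TPM (SD, n = 3 each; log2 fold change −0.17, adjusted p = 0.709).

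Proteins that bind microtubules or their growing ends, 16 of 22 tested, included 0 called genes, where 0.670% of all genes were called lower and 0.371% higher. They included 0 with an unadjusted p under 0.05, with a median of −0.08. *MAP4*, the main such protein outside neurons, was at 171 ± 32.4 and 180 ± 6.09 TPM (SD, n = 3 each; log2 fold change 0.10, adjusted p = 0.822). Stathmins, severing enzymes and depolymerizing kinesins, 12 of 15 tested, likewise held 0 called genes and 0 with an unadjusted p under 0.05, and their median was −0.21. Of all genes, 9.70% had such a p with a lower and 7.06% with a higher level. *STMN1*, which binds free heterodimers, was at 1077, 773 and 816 TPM in control and 865, 669.9 and 614 TPM in knockdown libraries, with overlap (log2 fold change −0.31, adjusted p = 0.427).

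**Figure D5:**
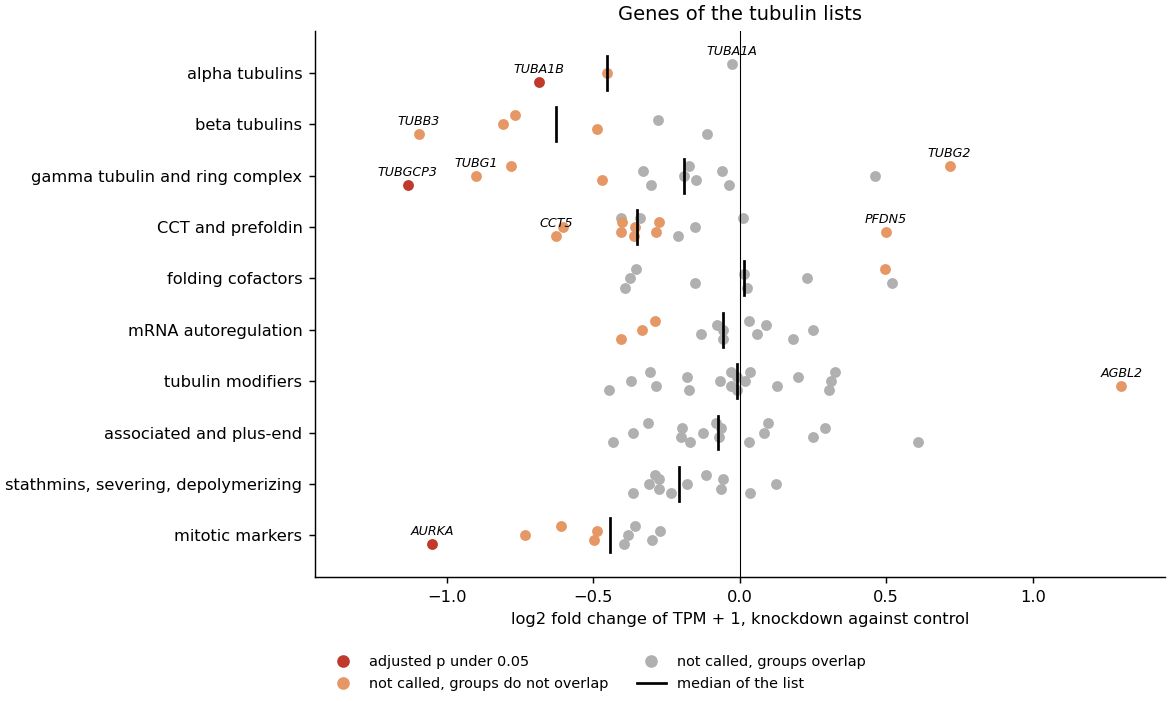
Log2 fold change of TPM + 1 in knockdown against control cells for each tested gene of the tubulin lists and of the mitotic markers; red marks an adjusted p under 0.05, orange groups that do not overlap, and black bars the median of each list. Medians run from −0.63 for the beta tubulins to 0.01 for the folding cofactors.

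Of 10 mitotic genes, which mark dividing cells, 1 was called lower, where 0.670% of all genes were. All 10 had lower estimates, 5 of them with no overlap between the groups, against 13.4% of all genes, and the median was −0.44 against −0.04 for all genes. *AURKA*, a kinase of the spindle poles, fell by 1.05 in log2 units (SE 0.14, adjusted p = 0.0252). It was at 149, 149.6 and 174 TPM in control and at 77.5, 73.6 and 75 TPM in knockdown libraries. Its adjusted p was 0.119 without control replicate 2 and 0.101, 0.153 and 0.133 without knockdown replicates 1, 2 and 3, with a log2 fold change between −1.08 and −1.03 in these fits. The highest of the list, *CCNB1*, the cyclin of mitotic entry, was at 348 ± 38.9 and 247 ± 19.5 TPM (SD, n = 3 each; log2 fold change −0.49, adjusted p = 0.151). The summed level of the 10 genes was 1377 to 1654 TPM in control and 955 to 1179 TPM in knockdown libraries. That was 70.6% of control, where the tubulin pools were at 67.6% and 66.8%. The groups overlapped for *MKI67*, *TOP2A*, *CDK1*, *AURKB* and *KIF11*, whose knockdown means were 74.45% to 82.56% of control. The part of dividing cells in the tubulin levels was not tested.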

How the data were processed

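Gene expression was measured by RNA-Seq of poly-A RNA in 3 control and 3 knockdown libraries of SK-Hep1 cells, grouped by the sample labels. According to the methods, the authors trimmed reads with fastp (v0.23.2), aligned them with STAR (v2.7.10b) and used samtools (v0.1.9) for sorting. Gene levels came from RSEM (v1.3.0), and the authors deposited them as TPM values with 2 decimals. The submitters' processing notes name HISAT2 (2.0.5) and hg38 in place of STAR. How reads shared by near-identical isotypes were divided rests on this step. The methods name GENCODE Release 45, whereas all gene identifiers matched Release 44, used here for names, positions, sequences and GC content.

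log2(TPM + 1) was fitted with lmFit and eBayes with trend in limma 3.58.1 (R 4.3.3), 2-sided and without a replicate block, over the 14020 genes whose mean reached 1 TPM. P-values were adjusted by the Benjamini–Hochberg method over these genes, and fold changes of low genes are understated by the pseudocount of 1. Pools and shares were compared by exact permutation over libraries. GC trends were removed per library by loess (span 0.3). The fit was also run on simulated data with independent noise and no trend with GC content. That run does not bear on the calls given here. Identity and shared windows were computed in Python 3.11.15 with Biopython 1.88 and pandas 2.3.3. The members and gene lists were chosen with earlier results of these data known. Named genes were all 10 members and, of other lists, called genes and the gene with the highest mean, and any other gene, such as a marker at or near 0 or a gene overlapping a member, was named after its values were seen. The same-numbered libraries deviated from their group means with correlations of 0.41, 0.036 and 0.28, and libraries of different numbers with −0.355 to 0.111. The main fit did not take the numbers to pair libraries, and a shared effect of the replicate number was not tested. With a replicate block 5 members were called lower, where 3.92% of all genes were. The coding ends of some members are not reported here.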

Additional observations from a re-analysis of the deposited data

How the results depend on the processing

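Alternatives were pseudocounts, filters, scalings, variance settings, a replicate block, GC trend removal, other thresholds and each library left out; sums with overlapping genes were added after the values were seen. The number of tubulin members called, 1 and lower, was 0 without a filter, with median-of-ratios scaling and with eBayes without trend, 6 with arrayWeights, 5 with a replicate block, 5 with the GC trend removed, 5 with both, and 4 at an adjusted p under 0.1; each called member was lower. It was 0 to 4 with a library left out. Over all genes, 146 (1.04%) were called in the main fit, 3218 (23%) with arrayWeights, 861 (6.14%) with the replicate block and 1207 (8.61%) once the GC trend was removed. With both it was 7.51%, and at an adjusted p under 0.1 it was 3.25%. The shares called lower were 0.67%, 13.8%, 3.92%, 4.39%, 4.09% and 1.95% in the same order. Without a filter, with median-of-ratios scaling and with eBayes without trend, 0.0475%, 0.922% and 0.735% of all genes were called. With a library left out the share was 0.0856% to 3.49%. The microtubule lists, in the order described above, held 13, 14, 9, 12, 19, 16 and 12 tested genes. Their counts are to be read beside these shares of all genes. Of the genes on the microtubule lists, 1 was called, 0 without a filter, with median-of-ratios scaling and with eBayes without trend, 19 with arrayWeights, 6 with a replicate block, 4 with the GC trend removed, 5 with both, 3 at an adjusted p under 0.1, and 0 to 2 with a library left out. *TUBA1A* changed sign, to 0.16 with quantile normalization and 0.01 with the GC trend removed, with or without a replicate block, and ranged from −0.14 to 0.06 with a library left out. The other 8 members tested were lower in 21 of 21 settings. Filters, eBayes settings and the replicate block cannot change these estimates, and the other settings refit the same libraries, so this count says little. All 134 values of pools and shares moved by less than 1 SD of the replicates, though differences near 0 changed sign. Leaving out 1 of 3 libraries can hardly move a difference that far, and a replicate block leaves it nearly the same, so this was largely fixed in advance. What caused the changes between settings was not tested. TPM hold no depth, so the precision rests on 3 libraries per group.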

Other observations

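Over the 6 libraries, the genes whose log2 level was most like the log2 of the summed alpha and beta tubulins were *AATF*, *RUVBL1* and *LAP3*, with Pearson's r of 0.997, 0.996 and 0.996. The 6 libraries hold 2 groups that differ in the tubulin sum, and 234 of 14010 genes had an r above 0.95, so these values are a description. The log2 fold changes of *AATF*, *RUVBL1* and *LAP3* were −0.37, −0.71 and −0.29.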
